A study of Mus musculus with 21 samples.

Results

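The integrated stress response regulators followed here were 10 genes of mouse liver. They were the transcription factors *Atf4*, *Atf5*, *Atf3* and *Ddit3* (CHOP), the stress-induced regulators *Trib3*, *Nupr1*, *Sesn2* and *Ddit4* (REDD1), and the phosphatase subunits *Ppp1r15a* (GADD34) and *Ppp1r15b* (CReP). Each was taken as the row of the deposited count table whose Ensembl identifier carries that symbol in GENCODE M21, an annotation of mouse build GRCm38. All 10 genes had 1 row each among the 46078 rows of the table, and all 10 were among the 14370 genes that passed a filter on low counts and were tested.

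The integrated stress response begins when a kinase such as GCN2 or PERK phosphorylates the translation initiation factor eIF2α, which lowers general protein synthesis while favouring translation of the *Atf4* and *Atf5* messages. ATF4 protein then pairs with C/EBP and other leucine zipper proteins and activates genes for amino acid synthesis and transport, for tRNA charging and for its own downstream regulators, among them *Ddit3*, *Trib3* and *Atf3*. In liver the pathway is best known as the response to diets that lack an essential amino acid, and GADD34 and CReP, which direct a phosphatase to eIF2α, switch the signal off.

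The libraries came from the livers of mice in 6 groups, each a genotype on a diet. KO mice lacked *Cse*, listed in the annotation as *Cth*, which encodes cystathionine γ-lyase, the last enzyme of the route that makes cysteine with sulfur from methionine. The comparison animals carry the label WT, although the study's text calls its comparison mice heterozygous (*Cse*+/-), so WT is used here only as the label. The KO line had a mixed 129/C57BL/6 background, and the mice were at least 9 weeks old when the diets started. Per the study's methods all animals were calorie restricted, for 3 days on the control diet and then for 2 days on the assigned diet. That diet was the defined amino acid diet itself (CTR) or the same diet with cysteine (noCys) or tryptophan (noTrp) removed and the other amino acids raised in proportion. There were 3 WT CTR, 4 KO CTR, 4 WT noCys, 3 KO noCys, 2 WT noTrp and 5 KO noTrp libraries. The 3 KO noCys libraries are numbered 1, 3 and 4. Levels are given as CPM, read counts divided by the TMM-adjusted library size. The summed cell type markers are the exception: their CPM use library totals without TMM scaling. A gene was called changed when its Benjamini-Hochberg adjusted p from edgeR's quasi-likelihood test, taken over the 14370 genes, was under 0.05.

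The libraries held 8889951 to 27230852 counted reads. *Cth* itself stood at 6.34 to 15.0 CPM in the KO libraries and at 108 to 452 CPM in the WT libraries, so that no library went against its genotype label. The hepatocyte markers, 8 genes, summed to 45663 to 68108 CPM in KO noCys and to 63436 to 97945 CPM in the other groups, while markers of adipocytes, muscle and pancreas summed to at most 6.98 CPM in any library, with *Lep*, *Cpa1* and *Pnlip* at 0 in all 21. The 5 cholangiocyte markers summed to 17.2 to 20.3 CPM in KO noCys and to 32.1 to 54.0 CPM in WT noCys, beside 27.0 to 51.2 CPM in KO noTrp. In KO CTR they summed to 19.2 to 60.5 CPM, overlapping KO noCys. The 8 immune cell markers summed to 89.9 to 126 CPM in KO noCys and to 143 to 234 CPM in KO noTrp. They summed to 75.1 to 129 CPM in WT CTR, 82.5 to 172 CPM in KO CTR and 92.5 to 161 CPM in WT noCys, all overlapping KO noCys. The part of these differences in the results of the comparisons was not tested. In whole liver, a change in the share of a cell type and a change in RNA per cell cannot be told apart. 1 library, WT CTR replicate 3, had 6.22% of its counts in a single noncoding row (CT010467.1).

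Because several of these genes are textbook ATF4 targets, the promoters were read for 2 short motifs, on both strands, from 250 bases before to 50 bases after each RefSeq start (build GRCm38.p6). The motifs were TGATGNAA, the core of the element bound by ATF4 with C/EBP proteins, and TGACGTCA, the cyclic AMP response element, and no match of one overlapped a match of the other in the regulators. 9 of the 10 regulators were in the promoter table, *Ppp1r15b* being the exception. TGATGNAA was present in 3 of these 9, against 3.97% of all 32851 promoters in the table, and in 8 of 21 genes of a list of ATF4 targets. The 3 were *Atf3*, *Nupr1* and *Trib3*. TGACGTCA was present in *Ppp1r15a* alone of the 9, against 1.79% of all promoters. A match describes these letters in this window and nothing more. The stretches holding the matches are shown 5′ to 3′ on the strand of the gene, with the match in capitals:
Atf3, chr1:191183410-191183469, minus strand: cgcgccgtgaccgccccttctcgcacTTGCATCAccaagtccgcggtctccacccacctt
Nupr1, chr7:126625547-126625606, minus strand: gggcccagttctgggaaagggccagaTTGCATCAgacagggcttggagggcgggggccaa
Trib3, chr2:152344028-152344057, minus strand: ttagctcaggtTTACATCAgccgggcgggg
Ppp1r15a, chr7:45526269-45526328, minus strand: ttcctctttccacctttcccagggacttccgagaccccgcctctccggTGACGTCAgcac
The RefSeq starts of *Atf3* and *Nupr1* lie inside the longer gene spans that GENCODE M21 gives below. In *Atf3* and *Nupr1* the same 8 letters, TTGCATCA, lay at the same distance, 110 to 103 bases before the start. In *Trib3* the match lay at bases 15 to 22 counted from the RefSeq start, which falls before the start that GENCODE M21 gives. All 3 were read from the strand opposite to the gene as TGATGCAA or TGATGTAA.

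The most calls among these genes came in KO mice on the diet without cysteine. *Atf5*, *Ddit3*, *Trib3*, *Nupr1* and *Sesn2* were each called higher in KO noCys against WT noCys, against KO CTR and against KO noTrp, by 1.89-fold for *Ddit3* up to 36.2-fold for *Nupr1* against WT noCys. *Atf4*, the factor at the head of the pathway, moved little in comparison and was called in 1 of these 3 comparisons. *Ddit4* and *Ppp1r15a* were called in none of them. In *Atf5*, *Nupr1* and *Sesn2* every KO noCys library lay above all 18 other libraries, as it did in 5.38% of all tested genes.

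**Figure D1:**
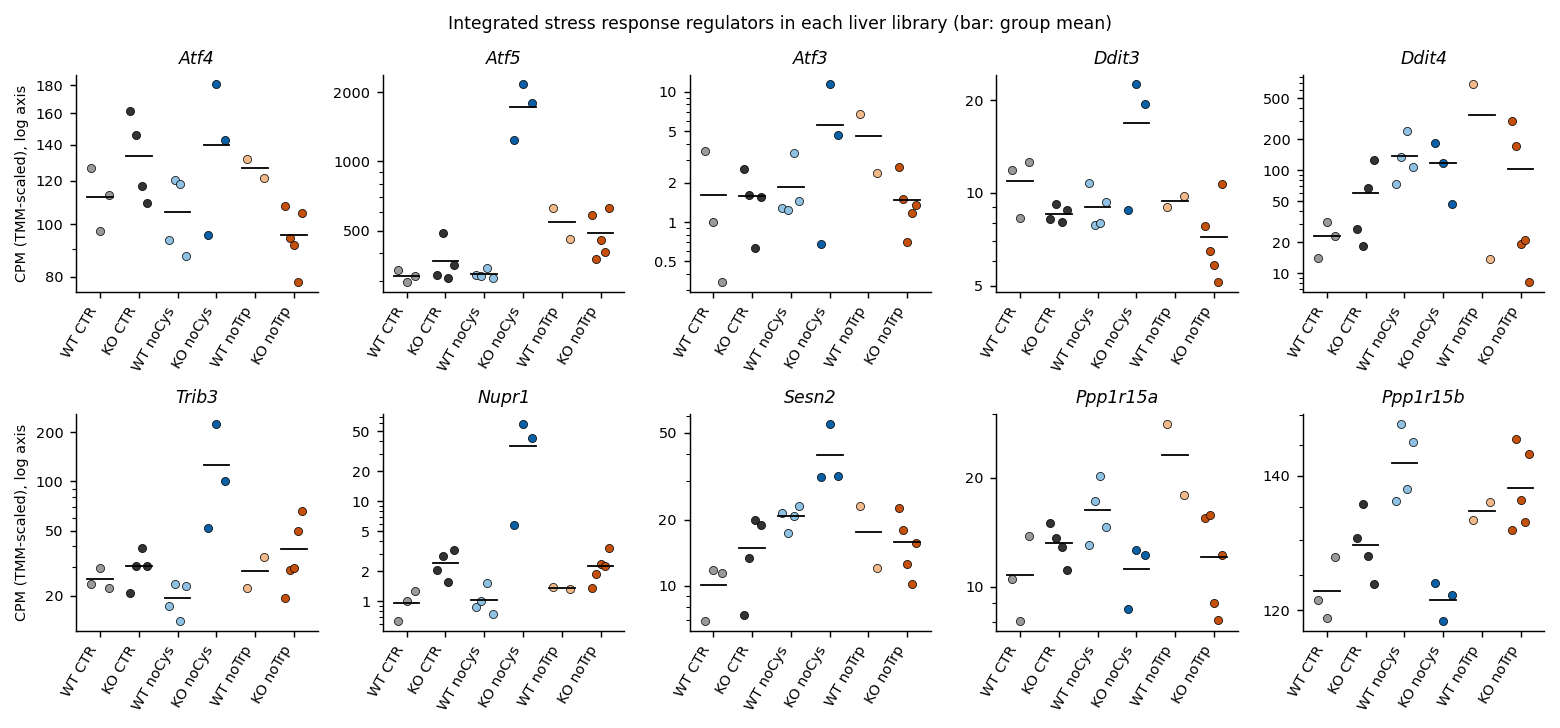
Level of each of the 10 regulators in every liver library, in TMM-scaled CPM on a log axis, by genotype and diet. Points are libraries (1 animal each) and bars are group means. The 3 KO noCys points stand above all others for *Atf5*, *Nupr1* and *Sesn2*, while *Ddit4* spreads over nearly its whole range within the noTrp groups.

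*Atf4* (ENSMUSG00000042406, chr15:80255184-80257541, plus strand) encodes the transcription factor whose translation rises when eIF2α is phosphorylated. The KO noCys libraries held 95.6, 181 and 143 CPM, and the WT noCys libraries 93.5, 121, 119 and 87.3 CPM. The KO CTR libraries held 161, 146, 117 and 109 CPM, overlapping the KO noCys libraries. The lowest group mean was in KO noTrp, with 108, 94.1, 91.6, 78.3 and 105 CPM. WT CTR (127, 96.9 and 113 CPM) and WT noTrp (132 and 121 CPM) lay between. Across all 21 libraries the message thus ranged 2.31-fold from lowest to highest. KO noCys exceeded WT noCys by 0.42 ± 0.18 (log2, SE, n = 3 and 4; adjusted p = 0.0909, edgeR) and KO CTR by 0.07 ± 0.18 (adjusted p = 0.835), neither of which passed the threshold. The first was called with limma-voom (0.47, adjusted p = 0.0281) and when only library totals scaled the counts (0.65, adjusted p = 0.014). Against KO noTrp the difference was 0.55 ± 0.17 and was called (adjusted p = 0.0361), although KO noCys replicate 1 lay within the KO noTrp range. Without KO noCys replicate 3 it was 0.33 (adjusted p = 0.323), without replicate 4 it was 0.54 (adjusted p = 0.0985), and leaving out KO noTrp replicate 2, 3 or 4 or fitting only these groups (adjusted p = 0.0717) also ended the call.

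*Atf5* (ENSMUSG00000038539, chr7:44812256-44816658, minus strand) encodes a related factor whose translation is controlled in the same way. Its KO noCys libraries held 1239, 2165 and 1794 CPM. The WT noCys libraries held 320, 318, 343 and 312 CPM, and the WT CTR libraries 337, 299 and 318 CPM, a difference of 0.02 ± 0.20 (adjusted p = 0.975). KO CTR livers held 320, 490, 312 and 353 CPM. The noTrp diet gave 629 and 457 CPM in WT and 583, 374, 457, 404 and 630 CPM in KO. Both group means lay between the control and the KO noCys means, although KO CTR replicate 2 (490 CPM) exceeded 3 of the 5 KO noTrp libraries. KO noCys exceeded WT noCys by 2.42 ± 0.20, a 5.36-fold difference (adjusted p = 8.08e-08), KO CTR by 2.23 ± 0.20 (adjusted p = 4.56e-07) and KO noTrp by 1.82 ± 0.18 (adjusted p = 4.64e-06). The difference between noTrp and CTR was 0.77 ± 0.23 in WT (adjusted p = 0.0754) and 0.41 ± 0.17 in KO (adjusted p = 0.232), with neither value called. All WT noTrp libraries lay above all WT CTR libraries, as they did in 15.3% of all tested genes. DESeq2 called the WT difference (adjusted p = 0.0323), as did edgeR without the filter on low counts (adjusted p = 0.0412). Of the 10 regulators *Atf5* had the largest share of its variance between groups, 91.7%.

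The 2 leading factors therefore parted in KO noCys. Per kilobase of exon, so that levels can be compared between genes, *Atf5* was the most abundant of the 10 in every group, at 160 ± 9.64 (SD, n = 3) CPM per kilobase in WT CTR and 869 ± 234 (n = 3) in KO noCys, against 47.6 ± 6.33 and 59.2 ± 18.1 for *Atf4*. The ratio of *Atf5* to *Atf4* per kilobase within a library, which does not depend on library scaling, was 14.2 to 15.3 in the KO noCys libraries. It was 2.35 to 4.22 in the WT CTR, KO CTR and WT noCys libraries, 4.46 and 5.64 in WT noTrp and 4.70 to 7.12 in KO noTrp. In the KO noCys libraries the ratio hardly varied even though both messages differed 1.75-fold or more between them. This ratio was chosen after its values were seen. The counted exons of *Atf5* share 82 bases, 4.11% of their length, with *Il4i1* and *Nup62* on the other strand, and the strand setting of the counting is not given in the sources used here.

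*Ddit3* (ENSMUSG00000025408, chr10:127290774-127296288, plus strand) encodes CHOP, a factor linked to cell death under lasting stress. It was a low-count gene, at 52 to 472 reads per library. KO noCys held 8.80, 22.5 and 19.4 CPM against 10.8, 7.88, 7.98 and 9.37 CPM in WT noCys and 8.20, 9.17, 8.03 and 8.77 CPM in KO CTR. Replicates 3 and 4 thus lay well above both groups and replicate 1 within them. KO noTrp had the lowest group mean, with 7.82, 6.47, 5.82, 5.14 and 10.7 CPM, the last above every KO CTR library. The KO noCys excess was 0.92 ± 0.25 over WT noCys (adjusted p = 0.00916), 1.00 ± 0.25 over KO CTR (adjusted p = 0.00722) and 1.25 ± 0.24 over KO noTrp (adjusted p = 0.00175). Without KO noCys replicate 3 the first was 0.66 (adjusted p = 0.101) and the second 0.74 (adjusted p = 0.0855), and neither was called. Its exons share 68 bases, 3.97%, with *Mars*, the methionyl-tRNA synthetase gene, on the other strand. GENCODE M21 gives the symbol *Ddit3* to a second identifier, ENSMUSG00000116429, which shares 105 bases, 6.13% of these exons, on the same strand and was not used here.

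*Atf3* (ENSMUSG00000026628, chr1:191170296-191218039, minus strand) encodes a stress-inducible factor of the same family and had 3 to 239 reads per library, the fewest of the transcription factors. KO noCys held 0.677, 11.4 and 4.63 CPM, which spans 16.8-fold, replicate 1 being among the low libraries and replicate 3 the highest of all 21. WT noTrp held 6.77 and 2.39 CPM, and no other library exceeded 3.49 CPM. The difference from WT noCys, 1.68 ± 0.65, was not called (adjusted p = 0.0608), although limma-voom (adjusted p = 0.0276), library totals alone (0.0277) and the fit without a filter (0.0314) called it. Those from KO CTR (1.85 ± 0.65, adjusted p = 0.0491) and KO noTrp (1.94 ± 0.62, adjusted p = 0.0403) were, with the libraries overlapping in both. They dropped to 0.81 (adjusted p = 0.512) and 0.90 (adjusted p = 0.490) without KO noCys replicate 3. The call against KO CTR was also lost without KO noCys replicate 4 and without any of KO CTR replicates 2, 3 and 4, and that against KO noTrp without KO noCys replicate 4 or any of KO noTrp replicates 2, 3, 4 and 5. DESeq2 called neither (adjusted p = 0.0804 and 0.0591), nor did edgeR when only the compared groups were fitted (0.0822 and 0.0608), and RLE size factors put the first at 0.0503.

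*Trib3* (ENSMUSG00000032715, chr2:152337422-152344032, minus strand) encodes a pseudokinase that is induced by ATF4 and binds it in feedback. KO noCys held 51.9, 225 and 101 CPM. WT noCys held 17.3, 23.7, 14.0 and 22.9 CPM, the lowest group mean, and KO CTR held 20.9, 30.3, 39.3 and 30.2 CPM. KO noTrp reached into the KO noCys range, with 19.3, 28.6, 29.5, 49.8 and 65.7 CPM. The KO noCys level was 6.50-fold that of WT noCys (2.70 ± 0.40, adjusted p = 7.08e-05) and 4.20-fold that of KO CTR (2.07 ± 0.39, adjusted p = 0.00101), with no overlap of the libraries. Of all tested genes 37.6% did not overlap against WT noCys and 28.6% against KO CTR, in either direction. Against KO noTrp the KO noCys level of *Trib3* was 3.29-fold (1.72 ± 0.37, adjusted p = 0.0042). The 3 differences were 1.98 (adjusted p = 0.00115), 1.34 (adjusted p = 0.0236) and 1.00 (adjusted p = 0.107) without KO noCys replicate 3, so that the last was no longer called.

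*Nupr1* (ENSMUSG00000030717, chr7:126623249-126630861, minus strand) encodes a small chromatin-associated stress protein and showed the largest change. It was scarce in the other groups. WT CTR held 0.635, 1.00 and 1.28 CPM, WT noCys 0.875, 1.01, 1.52 and 0.756 CPM, and WT noTrp 1.41 and 1.34 CPM, from 6 to 21 reads each. KO CTR held 2.07, 2.82, 1.57 and 3.29 CPM and KO noTrp 1.36, 1.86, 2.35, 2.27 and 3.43 CPM. In KO noCys the values were 5.75, 59.7 and 42.9 CPM, from 51, 1252 and 667 reads. All 3 lay above every other library, but replicate 1 did so by far less than the others. KO noCys exceeded WT noCys by 5.18 ± 0.53 (adjusted p = 1.32e-06), KO CTR by 3.89 ± 0.47 (adjusted p = 1.47e-05) and KO noTrp by 4.02 ± 0.44 (adjusted p = 1.28e-05), that is 36.2-, 14.8- and 16.2-fold. These differences were 4.60, 3.33 and 3.45 without KO noCys replicate 3, all still called. KO CTR exceeded WT CTR by 1.33 ± 0.65 with no overlap of the libraries, but the value was not called (adjusted p = 0.525). Of all tested genes 10.9% did not overlap between these groups, in either direction. Per kilobase *Nupr1* was the least abundant of the 10 in every WT group and the sixth in KO noCys, at 14.4 ± 11.0 (SD, n = 3) CPM per kilobase.

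*Sesn2* (ENSMUSG00000028893, chr4:132492032-132510501, minus strand) encodes sestrin 2, a leucine-sensing inhibitor of mTORC1. KO noCys held 31.4, 55.1 and 31.9 CPM. WT noCys held 21.6, 17.3, 20.9 and 23.2 CPM, and WT CTR 6.88, 11.8 and 11.4 CPM. *Sesn2*, *Ddit4* and *Ppp1r15b* were the 3 members whose WT noCys libraries all lay above the WT CTR libraries, which held for 9.15% of all tested genes. KO CTR (7.35, 13.4, 20.1 and 18.9 CPM), WT noTrp (23.3 and 12.1 CPM) and KO noTrp (22.6, 17.9, 12.6, 10.2 and 15.7 CPM) were spread between. KO noCys exceeded WT noCys by 0.93 ± 0.30 (adjusted p = 0.027), KO CTR by 1.42 ± 0.31 (adjusted p = 0.00279) and KO noTrp by 1.32 ± 0.29 (adjusted p = 0.00493). The first of these was sensitive: it was 0.60 (adjusted p = 0.219) without KO noCys replicate 3, and missed the threshold without WT noCys replicate 1, 2 or 3 (adjusted p of 0.0503 to 0.069). The third fell to 0.99 (adjusted p = 0.0753) without KO noCys replicate 3. The WT difference between noCys and CTR was 1.05 ± 0.33 and was not called (adjusted p = 0.144). It passed the threshold with DESeq2 (adjusted p = 0.0498), with limma-voom (adjusted p = 0.0472) and when the fit held only these groups (adjusted p = 0.0202).

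*Ddit4* (ENSMUSG00000020108, chr10:59949669-59951834, minus strand) encodes REDD1, another inhibitor of mTORC1, which is induced by glucocorticoids and by energy stress as well as by ATF4. It varied more than any other regulator except *Nupr1*, 81.7-fold from lowest to highest library, and mostly within groups. WT noTrp held 677 and 13.8 CPM, a 49.0-fold gap between 2 animals, and KO noTrp held 299, 170, 19.5, 21.2 and 8.28 CPM. KO noCys held 185, 117 and 47.4 CPM, overlapping WT noCys at 72.7, 133, 241 and 106 CPM, with replicate 4 below all of these. WT CTR held 14.0, 31.5 and 23.0 CPM and KO CTR 27.0, 18.3, 66.5 and 126 CPM. Only 25.5% of the variance lay between groups, the lowest share of the 10. The difference of KO noCys from WT noCys was -0.25 ± 1.03, with a 95% interval of -2.40 to 1.90 (adjusted p = 0.881), an interval wide enough to hold large differences in either direction. WT noCys lay above WT CTR in every library, as in 9.15% of all tested genes, by 2.59 ± 1.15. That difference was not called (adjusted p = 0.317) except when only these groups were fitted (adjusted p = 0.0138). WT noTrp exceeded WT CTR by 3.91 ± 1.29 with the libraries overlapping, and edgeR did not call it (adjusted p = 0.102).

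The phosphatase subunits did not share this rise. *Ppp1r15a* (ENSMUSG00000040435, chr7:45522916-45526268, minus strand), the inducible subunit GADD34, is itself a textbook ATF4 target. KO noCys held 8.68, 12.6 and 12.3 CPM, all below the WT noCys libraries at 13.1, 17.2, 20.2 and 14.7 CPM. The difference was -0.52 ± 0.24 and was not called (adjusted p = 0.109). Of all tested genes 37.6% did not overlap between these groups, in either direction. The highest group mean was that of WT noTrp, with libraries at 28.2 and 17.9 CPM, against 10.5, 8.04 and 13.8 CPM in WT CTR, a difference of 1.11 ± 0.28 that was called (adjusted p = 0.0351). The 8 immune cell markers summed to 180 to 203 CPM in WT noTrp and to 75.1 to 129 CPM in WT CTR, and their part in this difference was not tested. KO noTrp held 15.5, 15.8, 9.05, 8.10 and 12.2 CPM and KO CTR 15.1, 13.7, 12.9 and 11.1 CPM. All KO noTrp libraries lay below both WT noTrp libraries (-0.93 ± 0.24), and 9.94% of all tested genes did not overlap there. EdgeR did not call this difference (adjusted p = 0.137), but did without the filter on low counts. The call in WT noTrp against WT CTR rested on few libraries. Without WT noTrp replicate 1 the difference was 0.75 (adjusted p = 0.315), without WT CTR replicate 1 it was 1.10 (adjusted p = 0.101), without WT CTR replicate 2 it was 0.93 (adjusted p = 0.112), and neither limma-voom (adjusted p = 0.121) nor a fit of only these groups (adjusted p = 0.172) called it.

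*Ppp1r15b* (ENSMUSG00000046062, chr1:133131143-133139783, plus strand), the constitutive subunit CReP, stayed between 119 and 149 CPM in all libraries, a 1.25-fold range. KO noCys held 124, 119 and 122 CPM and WT noCys 136, 149, 138 and 145 CPM, with no overlap. Of all tested genes 37.6% did not overlap between these groups, in either direction. The difference of -0.23 ± 0.07 was called (adjusted p = 0.0245), the only member called lower in any comparison. WT noCys had the highest group mean, 142 ± 5.98 CPM (SD, n = 4), while WT CTR, at 123 ± 4.42 CPM (n = 3), was near KO noCys, at 121 ± 2.71 CPM (n = 3). Against KO CTR, whose libraries overlapped those of KO noCys, the difference was -0.09 ± 0.07 (adjusted p = 0.402). The call against WT noCys depended on scaling: with library totals alone, under which the median of all genes was 0.20 higher in KO noCys, the difference was -0.01 (adjusted p = 0.928). Leaving out WT noCys replicate 2 or 4 or KO noCys replicate 3 or 4 also ended the call (adjusted p of 0.0541 to 0.0999), as did fitting without the filter (-0.22, adjusted p = 0.196) or with only these groups (adjusted p = 0.0725). DESeq2 and limma-voom also called it lower in KO noCys against KO noTrp (adjusted p = 0.0145 and 0.0286), which edgeR did not. Its exons share 640 bases, 11.4%, with *Gm26616* on the other strand.

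**Figure D2:**
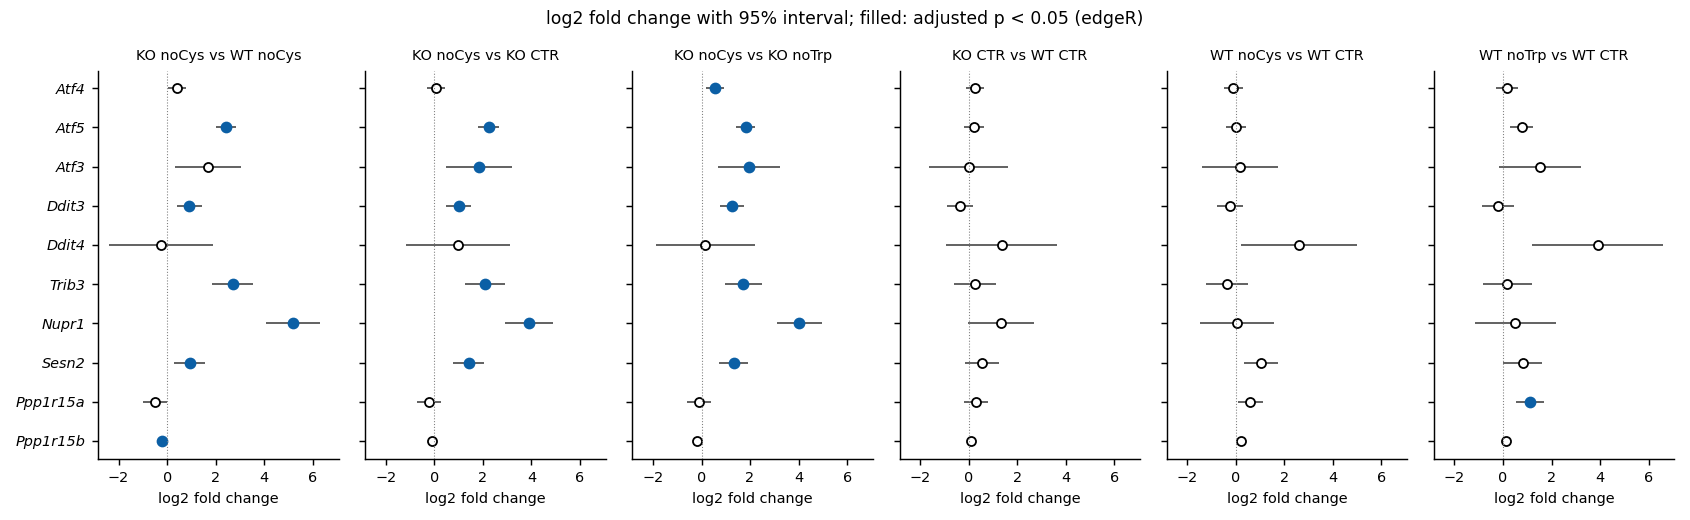
Log2 fold change of each regulator with its 95% interval in 6 comparisons. Filled points have an adjusted p under 0.05 in edgeR's quasi-likelihood test. Most filled points are in the 3 comparisons of KO noCys with another group, none appears in KO CTR against WT CTR or WT noCys against WT CTR, and *Ppp1r15a* is the single one in WT noTrp against WT CTR.

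Counted together, 5 of the 10 regulators were called higher and 1 lower in KO noCys against WT noCys, where 28.2% of all tested genes were called (14.8% higher and 13.4% lower). The median log2 fold change of the 10 was 0.92, beside -0.02 over all genes. Scaled by library totals alone, 80.0% of the calls over all genes were higher in KO noCys, in place of 52.5%, and the median gene moved by 0.20. Against KO CTR 6 were called, all higher, with 20.2% of all genes called (10.6% higher). Against KO noTrp 7 were called, all higher, with 13.9% of all genes called (7.17% higher). These comparisons share the KO noCys libraries and are not independent of each other. Without KO noCys replicate 3 the counts were 3, 4 and 3 members, and the calls over all genes also fell, from 4055 to 2358, from 2906 to 1379 and from 2000 to 570. *Atf5* and *Nupr1* were called in all 3 comparisons without that library.

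Outside KO noCys 1 regulator was called. No member was called in KO CTR against WT CTR (0.32% of all genes called), where none had an unadjusted p under 0.05 and DESeq2 and limma-voom called none. In KO noTrp against WT noTrp (0.195% of all genes called) edgeR called none, 3 members had an unadjusted p under 0.05, and neither other tool called any. In KO noTrp against KO CTR (1.87% of all genes called) the count was 0, with 2 at an unadjusted p under 0.05 and none by the other tools. One of them was *Atf4*, lower in all KO noTrp libraries than in all KO CTR libraries (-0.49 ± 0.16, adjusted p = 0.118). Of all tested genes 6.33% did not overlap between those groups, in either direction. In WT noCys against WT CTR (0.661% of all genes called) edgeR called none, with 4 at an unadjusted p under 0.05, while DESeq2 called 1 and limma-voom 2. In WT noTrp against WT CTR (3.19% of all genes called, 1.7% higher) *Ppp1r15a* was the 1 call, with DESeq2 calling 3 and limma-voom none. There 9 of the 10 were above 0, with a median of 0.64, and *Atf5*, *Nupr1*, *Sesn2*, *Ppp1r15a* and *Ppp1r15b*, 5 of the 10, had both WT noTrp libraries above all WT CTR libraries, beside 15.3% of all tested genes.

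A difference of differences compared the effect of the noCys diet between KO and WT. It was larger in KO for 4 regulators, with 7.44% of all genes called in this test, 3.56% in this direction. *Atf5* differed by 2.21 ± 0.28 (adjusted p = 9.88e-05), *Nupr1* by 3.85 ± 0.91 (adjusted p = 0.0143), *Trib3* by 2.44 ± 0.57 (adjusted p = 0.0128) and *Ddit3* by 1.26 ± 0.36 (adjusted p = 0.0372). For *Sesn2* the difference was 0.37 ± 0.45, with a 95% interval of -0.57 to 1.30 (adjusted p = 0.671). Without KO noCys replicate 3, and likewise without WT CTR replicate 3, 2 members were called. *Ddit3* was the least stable, losing its call without any of WT CTR replicates 1 and 3, KO CTR replicates 1, 3 and 4, WT noCys replicates 2, 3 and 4 and KO noCys replicates 3 and 4 (adjusted p of 0.053 to 0.147). *Trib3* lost its call without KO noCys replicate 3 (1.72, adjusted p = 0.0672), and *Nupr1* without WT CTR replicate 2 or 3 (adjusted p = 0.0554 and 0.0533) and with limma-voom (adjusted p = 0.0684). The corresponding test for noTrp called no member and no gene (0% of all genes) in edgeR, where 2 members and 821 genes had an unadjusted p under 0.05; limma-voom called 0 genes and DESeq2 called 14 genes, no member among them.

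The difference between KO and WT was also larger without cysteine than without tryptophan for 5 regulators, with 6.35% of all genes called, 3.32% in this direction. *Nupr1* differed by 4.48 ± 0.87 (adjusted p = 0.00454), *Atf3* by 3.28 ± 0.95 (adjusted p = 0.045), *Atf5* by 2.57 ± 0.28 (adjusted p = 3.22e-05), *Trib3* by 2.27 ± 0.58 (adjusted p = 0.0226) and *Ddit3* by 1.30 ± 0.37 (adjusted p = 0.0426). Both WT noTrp libraries enter this test, and they differed 49.0-fold in *Ddit4*, 2.83-fold in *Atf3* and 1.92-fold in *Sesn2*, the widest gaps of the 10. *Atf5* was called under every alternative run and without each library in turn. *Nupr1* was called without each library in turn but not with limma-voom (adjusted p = 0.194). Without KO noCys replicate 3 these 2 were the only calls. *Trib3* was also lost without WT noTrp replicate 2 (adjusted p = 0.098), with limma-voom (0.123) and with only the compared groups fitted (0.0538). *Ddit3* was lost without any of 9 further libraries, WT noCys replicates 2, 3 and 4, KO noCys replicate 4, WT noTrp replicates 1 and 2 and KO noTrp replicates 2, 3 and 4, and *Atf3* without WT noCys replicates 1, 2 and 4, KO noCys replicate 4, WT noTrp replicate 1 or any of KO noTrp replicates 2, 3, 4 and 5. Both were also lost with limma-voom (adjusted p = 0.0972 and 0.0884) and with only the compared groups (0.0829 and 0.0538), and *Atf3* with DESeq2 (0.0556).

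The 3 KO noCys animals did not respond alike. Replicate 3 was the highest of the 3 for 8 of the 10 regulators and replicate 1 the lowest for 8, the exceptions being *Ddit4* and *Ppp1r15b*, which were highest in replicate 1. The share of counts taken by *Alb*, the albumin gene, was 4.46% in replicate 1, 2.46% in replicate 3 and 2.74% in replicate 4, against 3.41% to 6.64% in the other groups. The summed hepatocyte markers were 68108, 45663 and 49438 CPM in the same order. The part of these differences in the levels of the regulators was not tested.

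After removal of the group means, the regulators still moved together in part. Of the 45 pairs, 33 had a positive correlation of log2 CPM over the 21 libraries and 11 exceeded 0.5, with a median of 0.28. The closest were *Atf4* with *Atf3* (r = 0.72), *Atf5* with *Ddit3* (0.71) and *Atf4* with *Ppp1r15a* (0.69). *Nupr1* went with *Ddit3* (0.65) and *Trib3* (0.61). *Ddit4* stood outside this set and went with *Sesn2* (0.62), its fellow mTORC1 inhibitor, and against *Trib3* (-0.48). These values describe libraries that share depth and scaling. The share of positive pairs over all tested genes was not computed.

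**Figure D3:**
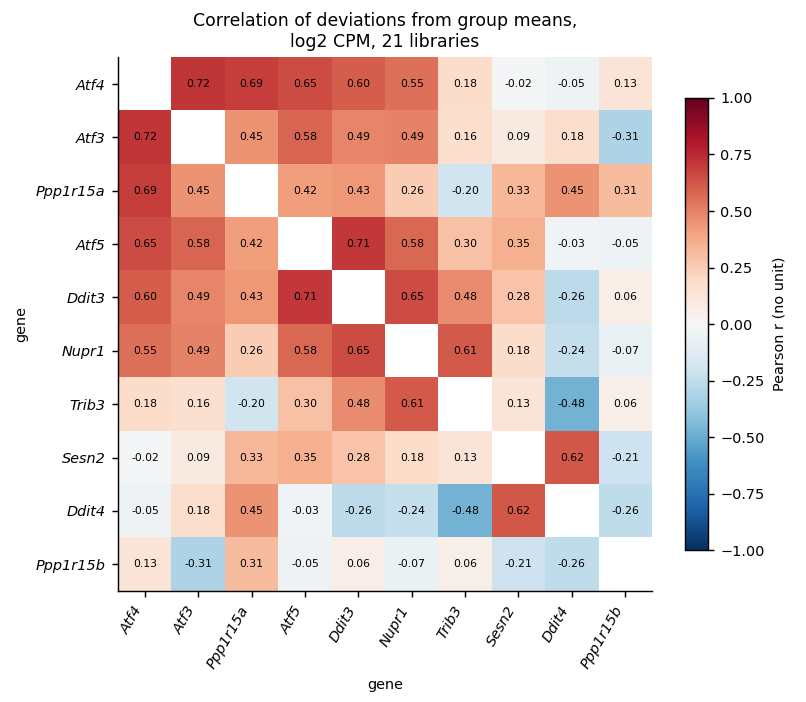
Pearson correlation between each pair of regulators over 21 libraries, computed on log2 CPM after subtracting each group's mean. Red is positive and blue negative. *Atf4*, *Atf3*, *Atf5*, *Ddit3* and *Nupr1* form a block of positive values from 0.49 to 0.72, and *Ddit4* is positive mainly with *Sesn2* and *Ppp1r15a*.

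The tested genes whose log2 CPM followed each regulator most closely over the 21 libraries differed between regulators. For *Atf5* the closest was *Sars*, the seryl-tRNA synthetase gene (r = 0.96), followed by *Vmn2r3* (0.96) and *Gm19619* (0.94). For *Nupr1* they were *Mthfd2*, a mitochondrial folate enzyme (0.96), and the tRNA synthetase genes *Gars* (0.94) and *Sars* (0.94). For *Sesn2* they were *Gpt2*, an alanine transaminase (0.88), *Mat1a* (0.82) and *N4bp2l1* (0.82). For *Trib3* they were *Cntnap1* (0.94), *Mtbp* (0.89) and *Mdc1* (0.89). For *Atf4* the highest values were lower, with *Nop56* (0.79), *1110038B12Rik* (0.76) and *Urb1* (0.72), of which *Nop56* and *Urb1* serve ribosome assembly. For *Ddit3* they were *Rcc2* (0.86), *Rela* (0.83) and *1110038B12Rik* (0.82), for *Atf3* *Scrib* (0.78), *Strn4* (0.78) and *Lrrc28* (0.74), and for *Ppp1r15b* *Atp6v0a2* (0.81), *Syngr2* (0.81) and *Tmc6* (0.80). All of these values were lower over the 18 libraries outside KO noCys. There they were 0.54 to 0.72 for the partners of *Ddit3*, 0.61 to 0.71 for *Atf4*, 0.63 to 0.81 for *Nupr1*, 0.65 to 0.79 for *Trib3* and 0.69 to 0.79 for *Atf5*. They were 0.68 to 0.74 for *Atf3*, 0.73 to 0.74 for *Ppp1r15b* and 0.74 to 0.82 for *Sesn2*.

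*Ddit4* and *Ppp1r15a* had partners of another kind. *Ddit4* went with *Tat*, the tyrosine aminotransferase gene that glucocorticoids induce (r = 0.93), with *Trp53inp1* (0.92) and with *Slc25a15*, the mitochondrial ornithine carrier (0.90). Within groups the values were 0.92, 0.96 and 0.91, and without the 2 libraries farthest from the median of *Ddit4* they were 0.92, 0.88 and 0.88. *Ppp1r15a* went with a row that has no symbol here (ENSMUSG00000086605, 0.82) and with the immediate early genes *Jun* (0.80) and *Fos* (0.80). Within groups these values were 0.73, 0.67 and 0.56. All of these are descriptions across libraries, chosen as the highest of 14370 genes.

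**Figure D4:**
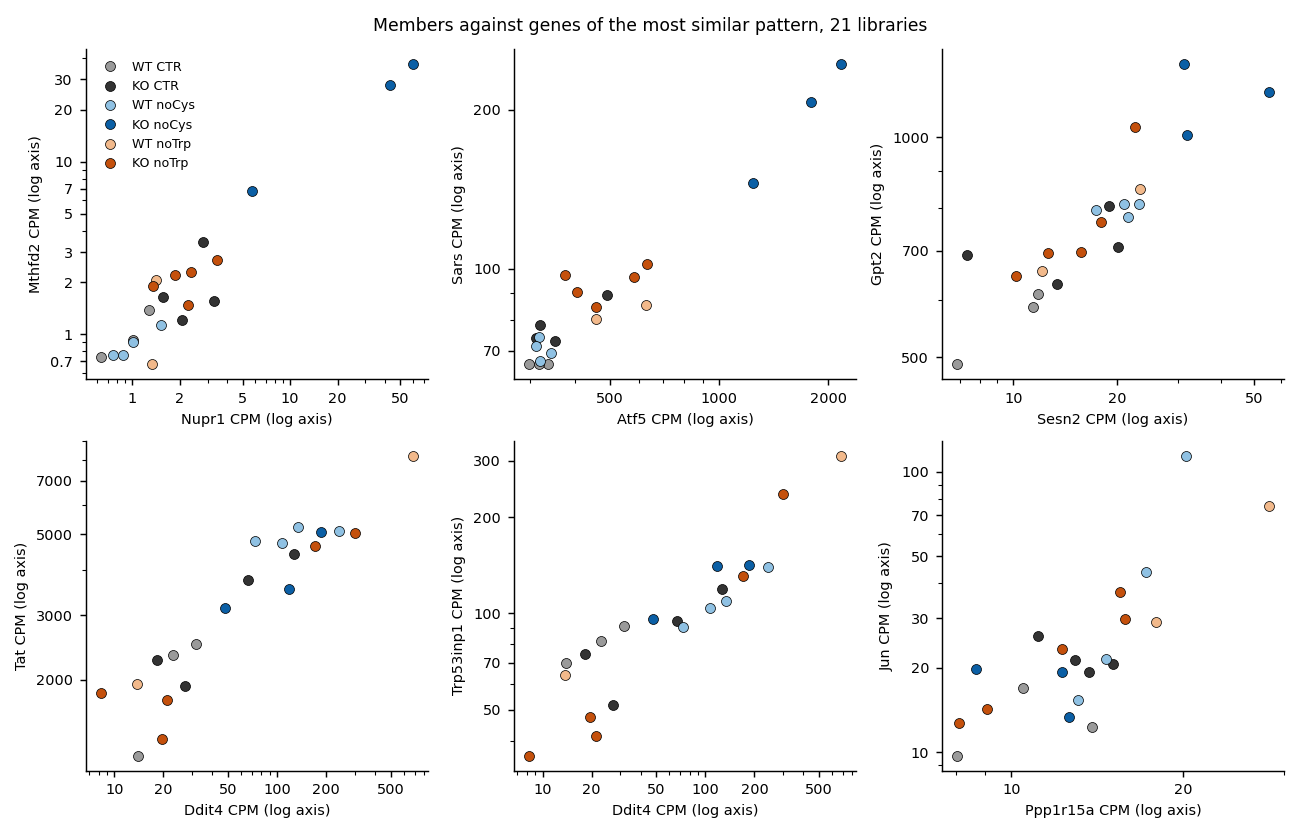
Regulators against genes of similar pattern in the 21 libraries, both in CPM on log axes, coloured by group. *Nupr1* with *Mthfd2* and *Atf5* with *Sars* are spread out by the 3 KO noCys libraries, whereas *Ddit4* with *Tat* and *Trp53inp1* runs through all groups from 8.28 to 677 CPM of *Ddit4*.

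The genes around the regulators were followed as lists, each described by its counts in KO noCys against WT noCys beside the 28.2% of all genes called. Of 22 tested ATF4 targets 19 were called higher and 1 lower, with a median log2 fold change of 1.85. *Psat1*, of serine synthesis (6.55 ± 0.46, adjusted p = 1.40e-08), *Asns*, the asparagine synthetase (5.56 ± 0.40, adjusted p = 1.51e-08), *Fgf21*, a hormone of amino acid shortage (5.36 ± 0.95, adjusted p = 0.00037), and *Mthfd2* (4.78 ± 0.47, adjusted p = 8.98e-07) were the largest. *Stc2* was the 1 called lower (-1.30 ± 0.48, adjusted p = 0.0483). *Slc7a11*, the cystine transporter gene, was below the filter and not tested. Against KO CTR 18 of the 22 were called higher (20.2% of all genes called) and against KO noTrp 16 (13.9%), while KO noTrp against KO CTR gave 2 (1.87%), *Psat1* (2.04, adjusted p = 0.00366) and *Pck2* (1.19, adjusted p = 0.005). WT noTrp against WT CTR (3.19% of all genes called) gave 2 as well, *Psat1* (2.53, adjusted p = 0.0413) and *Pck2* (1.26, adjusted p = 0.0237). Between the genotypes on the other diets *Asns* was the 1 target called, in KO CTR against WT CTR (3.86 ± 0.48, adjusted p = 0.000365) and in KO noTrp against WT noTrp (2.99 ± 0.47, adjusted p = 0.0061). The mean of *Asns* was 1.56 CPM for WT CTR, 3.29 CPM for WT noCys, 23.0 CPM for KO CTR and 158 CPM for KO noCys. The effect of the noCys diet on it did not differ between genotypes past the threshold (1.70 ± 0.66, adjusted p = 0.125). WT noCys against WT CTR gave no target by edgeR, with 5 at an unadjusted p under 0.05.

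Upstream of the regulators, 7 of 14 genes for the eIF2 kinases and the eIF2 machinery were called higher in KO noCys against WT noCys and 1 lower. The higher ones included *Impact*, an inhibitor of GCN2 activation (1.05 ± 0.17, adjusted p = 0.000149), *Eif2s1*, which encodes eIF2α itself (0.87 ± 0.11, adjusted p = 1.29e-05), and *Eif2b3*, a subunit of its exchange factor (0.74 ± 0.18, adjusted p = 0.00455). *Gcn1l1*, which encodes the co-activator of GCN2, was called higher as well (0.46 ± 0.12, adjusted p = 0.0093) and is named after its value was seen. The lower one was *Eif2ak2*, the kinase PKR (-0.76 ± 0.23, adjusted p = 0.0172). The other kinases were not called, among them GCN2 (*Eif2ak4*, -0.34 ± 0.20, adjusted p = 0.200) and PERK (*Eif2ak3*, 0.43 ± 0.20, adjusted p = 0.109).

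Of 9 leucine zipper genes, possible dimer partners of these factors, 6 were not called. *Cebpg* was called higher (0.52 ± 0.15, adjusted p = 0.0118) and *Jun* (-1.47 ± 0.52, adjusted p = 0.0409) and *Cebpb* (-0.78 ± 0.24, adjusted p = 0.0224) lower. Among 13 tested relatives of the regulators *Nupr1l* (0.90 ± 0.33, adjusted p = 0.0445) and *Atf6* (0.41 ± 0.12, adjusted p = 0.015) were called higher and *Trib1* lower (-0.55 ± 0.16, adjusted p = 0.0123). *Trib2* (-0.35 ± 0.39, adjusted p = 0.536), *Sesn1* (-0.47 ± 0.21) and *Sesn3* (0.16 ± 0.36, adjusted p = 0.773), further paralogs of *Trib3* and *Sesn2*, did not pass the threshold, and *Ddit4l* was not tested.

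Other stress programmes were set beside the integrated stress response. All 9 mitochondrial chaperone and protease genes were called higher, led by *Lonp1* (1.27 ± 0.16, adjusted p = 1.11e-05), *Hspa9* (1.14 ± 0.12, adjusted p = 2.96e-06), *Hspe1* (0.83 ± 0.13, adjusted p = 0.000155) and *Clpx* (0.75 ± 0.19, adjusted p = 0.00608). Of 14 endoplasmic reticulum stress genes of the IRE1 and ATF6 arms, 9 were called higher, led by *Derl3* (2.90 ± 0.67, adjusted p = 0.00309), *Creld2* (1.65 ± 0.33, adjusted p = 0.00101), *Sdf2l1* (1.57 ± 0.33, adjusted p = 0.00142) and *Hspa5* (1.29 ± 0.21, adjusted p = 0.000137). In KO noTrp 7 of the 14 were called higher than in KO CTR, where 1.87% of all genes were called. Between KO noCys and KO noTrp 1 of the 14 was called, *Ern1* (0.78, adjusted p = 0.00692), beside 13.9% of all genes (7.17% higher). The mitochondrial list gave 0 of 9 by edgeR in KO noTrp against KO CTR, with 5 at an unadjusted p under 0.05. In KO noCys against KO noTrp it gave 5 of 9, all higher, beside 13.9% of all genes called (7.17% higher).

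None of 11 tested p53 targets was called by edgeR in KO noCys against WT noCys, where 3 had an unadjusted p under 0.05. Of 13 immediate early genes 5 were called lower and none higher, with *Fos* (-2.16 ± 0.71, adjusted p = 0.0283), *Dusp1* (-1.82 ± 0.43, adjusted p = 0.00353), *Jun* and *Ier3* (-1.45 ± 0.40, adjusted p = 0.0116) leading. Of 10 glucocorticoid and fasting genes 3 were lower, *Tsc22d3* (-1.09 ± 0.32, adjusted p = 0.0141), *Pck1* (-0.64 ± 0.15, adjusted p = 0.0043) and *Per1* (-0.52 ± 0.13, adjusted p = 0.0048). Against KO CTR (20.2% of all genes called) edgeR called none of either list lower in KO noCys. It called 1 glucocorticoid and fasting gene higher there, *Sgk1* (1.30 ± 0.43, adjusted p = 0.0393). In that comparison no immediate early gene and 1 glucocorticoid and fasting gene had a value below 0 with an unadjusted p under 0.05. In WT noCys against WT CTR (0.661% of all genes called) *Dusp1* (2.28 ± 0.44, adjusted p = 0.0261), *Ier2* (0.86 ± 0.17, adjusted p = 0.0261) and, of the glucocorticoid and fasting genes, *Fkbp5* (1.46 ± 0.30, adjusted p = 0.0305) were called higher. In WT noTrp against WT CTR, the comparison in which *Ppp1r15a* was called, 7 of the 13 immediate early genes were called higher, beside 1.7% of all genes. The part of these genes in the level of *Ppp1r15a* was not tested.

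**Figure D5:**
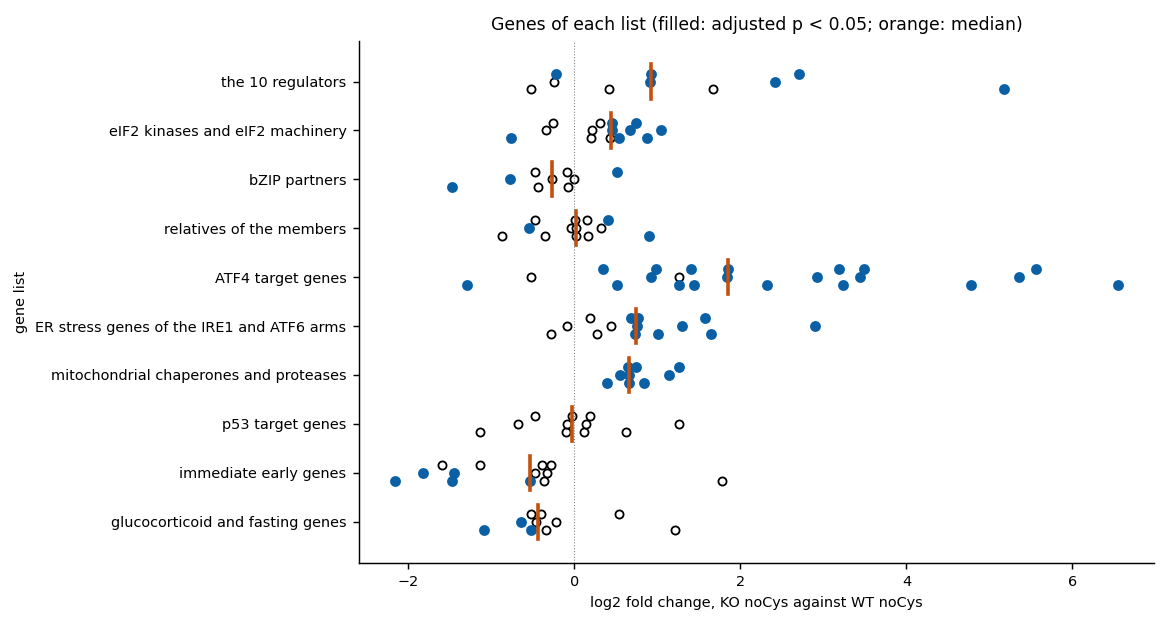
Log2 fold change of each tested gene in KO noCys against WT noCys, by list, with the 10 regulators in the top line. Filled points have an adjusted p under 0.05 (edgeR) and orange bars are medians, 0.92 for the regulators and 1.85 for the ATF4 targets.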

How the data were processed

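Bulk RNA was sequenced from 21 mouse livers, grouped by sample title. From TRIzol-extracted, poly(A)-selected RNA the authors aligned paired reads to GRCm38 with HISAT2 2.1.0 and counted them with HTSeq 0.11.0; they deposited raw integer counts per Ensembl gene. The annotation release and strand setting are not given in the sources used here. 1 column of the table could not be tied to a sample and was left out. By its number it falls between the columns of KO noCys replicates 1 and 3, but no label gives its group.

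The tests used edgeR 4.0.16 (R 4.3.3): filterByExpr (minimum count 10, minimum total 15), TMM factors of 0.883 to 1.14, a one-way model of 6 groups over all libraries, and two-sided quasi-likelihood tests of 11 comparisons with Benjamini-Hochberg adjustment. Error bounds on fold changes are SE. Library totals limit precision mainly for *Atf3* and *Nupr1*. Titles name biological replicates, and p-values measure the spread between these libraries. No pair of replicates agreed within sampling noise.

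Alternatives were DESeq2 1.42.0, limma 3.58.1 (voom with quality weights), other scaling, no filter, only the compared groups, a replicate block and each library left out. The scripts were tested on simulated data. The regulators and the gene lists were chosen with earlier results of these data known. All 10 regulators, the 3 genes most like each and up to 4 called genes per list are named. Exon lengths and names are from GENCODE M21. Promoters are from RefSeq.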

Additional observations from a re-analysis of the deposited data

Results flagged for a closer look

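*Atf3* in WT noCys replicate 3 stood at 3.42 CPM, far from the other 3 libraries of its group, of which the nearest held 1.46 CPM. It was the only library set apart in this way among 30 combinations of gene and group with 4 or 5 libraries, and chance sets apart about 5% of them.

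A difference between groups in the effect of the same contrast was found for 9 results, all by a test of the difference itself (edgeR). The effect of the diet without cysteine was larger in KO than in WT for *Atf5* (2.21 on the log2 scale, adjusted p = 9.88e-05), *Ddit3* (1.26, adjusted p = 0.0372), *Trib3* (2.44, adjusted p = 0.0128) and *Nupr1* (3.85, adjusted p = 0.0143). The difference between KO and WT was larger on noCys than on noTrp for *Atf5* (2.57, adjusted p = 3.22e-05), *Atf3* (3.28, adjusted p = 0.045), *Ddit3* (1.30, adjusted p = 0.0426), *Trib3* (2.27, adjusted p = 0.0226) and *Nupr1* (4.48, adjusted p = 0.00454). Both tests contain the WT noCys and KO noCys libraries.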

How the results depend on the processing

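The number of regulators called changed by more than 1.5 times in these cases. Leaving out 1 library gave 3 to 8 members in KO noCys against WT noCys (6 with all libraries), 3 to 7 against KO noTrp (7), 2 to 4 for the noCys effect (4), 2 to 6 for the genotype effect on noCys minus noTrp (5), 0 to 3 in WT noTrp against WT CTR (1) and 0 to 1 in KO noTrp against WT noTrp (0). Without a filter, KO noTrp against WT noTrp gave 1 (*Ppp1r15a*, -0.93) and WT noTrp against WT CTR gave 3. WT noCys against WT CTR gave 1 with DESeq2, 2 with limma-voom and 2 with only the compared groups. WT noTrp against WT CTR gave 3 with DESeq2 and 0 with limma-voom, with only the compared groups and with the replicate block. The genotype effect on noCys minus noTrp gave 1 with limma-voom and 2 with only the compared groups. The causes were not tested. The remaining counts stayed within 1.5 times. Of single fold changes with all libraries kept, 708 kept direction and side of the threshold, 28 lost and 22 gained a call, and 12 uncalled values changed sign; no called value reversed. Library totals alone raised the share of higher calls over all genes from 52.5% to 80.0% in KO noCys against WT noCys and to 73.7% against KO CTR (52.6%), and shifted the median gene by 0.20 and 0.13. The main model did not pair libraries by replicate number. After removal of group means, 41 same-numbered pairs from different groups correlated at -0.36 to 0.35 (median -0.03), 9 of them over 0.1. The 140 differently numbered pairs correlated at -0.38 to 0.24 (median 0.01), 26 of them over 0.1. The highest value, 0.35, joined WT noTrp replicate 1 and KO noTrp replicate 1. Whether libraries share a batch was not tested. With the replicate block the counts were 4 in KO noCys against WT noCys, 5 against KO CTR, 5 against KO noTrp, 3 for the noCys effect and 4 for the genotype effect. *Atf3* (3 to 239 reads) and *Nupr1* (6 to 1252 reads) had the lowest read counts of the 10 in any library. The part of these low counts in the changes above was not tested.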
